A study of Mus musculus with 32 samples.

Results

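The hepatocyte exports bile constituents across 2 membrane domains, and the 10 genes described here encode transporters of both: 6 of the canalicular membrane, which faces the bile (Abcb11, Abcb4, Abcc2, Abcg5, Abcg8 and Atp8b1), and 4 of the basolateral membrane, which faces the blood (Abcc3, Abcc4, Slc51a and Slc51b). They were chosen by gene symbol from the 54532 genes of the deposited count table, and all 10 were found in it. RNA was sequenced from frozen liver tissue of 32 C57BL/6 mice at 12 weeks of age. There were 8 groups of 4 with 1 library per mouse, so p-values measure the spread between mice. Female and male mice were either wild type (WT) or Cyp2c70-/- (KO), a germline knockout made with CRISPR-Cas9 and therefore carried by every cell. They were fed either chow or chow with 0.006% SC-435, about 11 mg/kg/day, an inhibitor of the ileal bile acid transporter, from 3 weeks after weaning by the labels, whereas the study's methods place the switch at weaning. The comparisons ask what the loss of Cyp2c70, the rodent enzyme that makes muricholic acids, did to the export genes, and what blocking the intestinal return of bile acids did to them in KO and in WT livers.

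As background, Abcb11 (the bile salt export pump) moves bile salts into the canaliculus. Abcb4 flips phosphatidylcholine to the outer leaflet so that bile carries phospholipid, and Abcc2 (Mrp2) exports conjugated organic anions such as bilirubin glucuronides. Abcg5 and Abcg8 work only as a pair and export cholesterol and plant sterols, and Atp8b1 (FIC1) flips aminophospholipids back into the inner leaflet. On the blood side Abcc3 (Mrp3) and Abcc4 (Mrp4) carry conjugated organic anions and bile acids out of the cell, and Slc51a and Slc51b (OSTα and OSTβ) form a heteromeric bile acid facilitator that needs both subunits. In cholestasis the basolateral pumps are known as a route by which bile acids can leave the cell when the canalicular route is overloaded. The nuclear receptor FXR (Nr1h4) is the bile acid sensor that is known to induce Abcb11, Slc51a and Slc51b. LXR is known to induce Abcg5 and Abcg8, and CAR (Nr1i3) and Nrf2 (Nfe2l2) are known to induce Abcc3 and Abcc4.

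Library totals lay between 36476021 and 44771350 counts. Levels are given as CPM, the counts scaled to a common library total after TMM normalisation over the 32 libraries. Fold changes come from edgeR's quasi-likelihood test, in which a gene passed when its Benjamini-Hochberg adjusted p over all genes tested was under 0.05. Cyp2c70 was at 110 to 187 CPM in the KO livers and at 275 to 851 CPM in the WT livers, with no overlap, so reads of the gene were still present in KO livers. The library of male WT chow replicate 1 stood apart, with a TMM factor of 0.639 against 0.894 to 1.285 in the others and a mean correlation of 0.920 with its group against 0.967 or more, so the value without it is given beside results that it changed. Hepatocyte markers were at 57120 to 193300 summed CPM over 10 genes in every library, as a liver sample should show. The sum was lower in female KO mice on chow, at 60710 to 84060, than in female WT mice on chow, at 96810 to 126400. Of the 10 genes 3 were lower and 1 higher in that comparison, beside 5.05% and 9.83% of all genes.

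Compared per kilobase of gene length, the canalicular genes were the abundant ones. Abcb11 led in all 8 groups, with group means of 148 to 175 CPM per kilobase. Abcc2 followed at 72.7 to 93.6 CPM per kilobase, and the basolateral Abcc3 stood beside it at 50.6 to 87.0. Abcc2 lay above Abcc3 in all male KO mice on chow, at 65.2 to 84.0 against 38.45 to 60.5. The same held in female KO mice on SC-435, at 82.1 to 84.2 against 72.4 to 78.1. In the other groups Abcc2 and Abcc3 overlapped and could not be ordered beyond their spread. Abcb4, Abcg5 and Abcg8 formed the next tier, at 29.0 to 44.5, 25.0 to 52.0 and 23.7 to 41.2 CPM per kilobase, with ranges that overlapped. Atp8b1 lay lower, at 6.01 to 9.14 CPM per kilobase. Abcc4 was at 0.498 to 3.10, Slc51b at 0.109 to 3.05 and Slc51a at 0.0308 to 0.0572 CPM per kilobase. The 3 lowest genes were thus all basolateral, and on the blood side Abcc3 accounted for nearly all of the summed level.

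**Figure D1:**
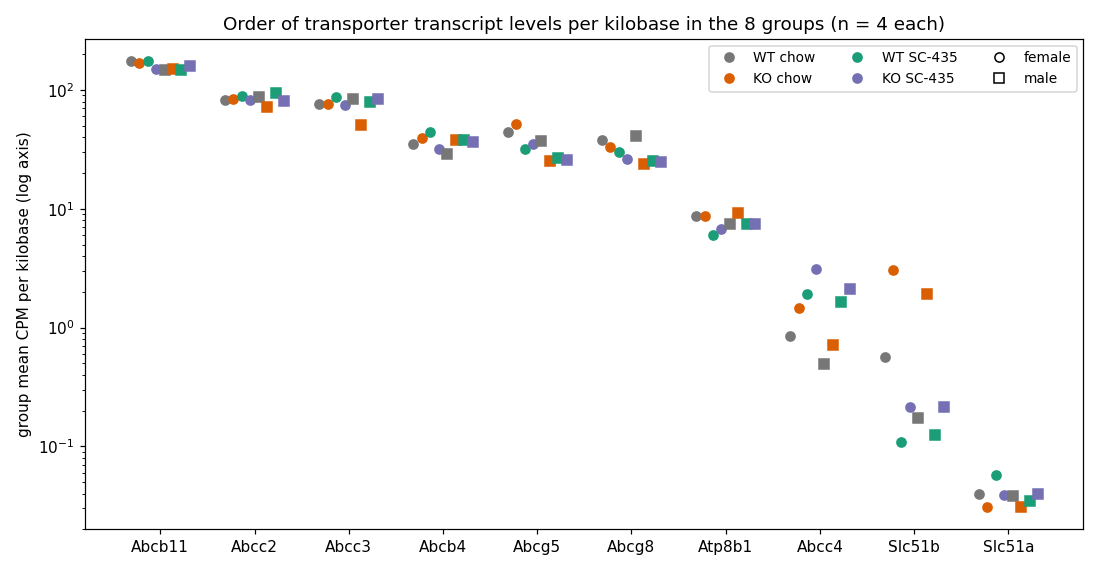
Group mean level of each transporter gene in CPM per kilobase of gene length (log axis), with genes ordered by their mean over all mice, circles for female and squares for male groups (n = 4 mice each) and colours for genotype and diet. Abcb11 is highest in all groups, at 148 to 175 CPM per kilobase, and the 8 groups separate widely only for Abcc4 and Slc51b.

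Some promoter sequences are shown for genes whose levels are described below. RefSeq promoter windows (GRCm38.p6) were matched for 8 of the 10 genes, the exceptions being Abcc3 and Atp8b1, and the 250 bases before each annotated start were searched on both strands. The inverted repeat IR1, the known FXR site (AGGTCANTGACCT, up to 1 mismatch), was found in the window of Abcb11 alone among the 8 genes and in 0.0791% of all 32851 windows. The direct repeat DR4, a known LXR and CAR site (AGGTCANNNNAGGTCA, up to 2 mismatches), was found in the window of Slc51b alone and in 2.57% of all windows. The core of the Nrf2 element (TGACNNNGC, no mismatch) was found in windows of Abcc2 and Abcc4 and in 10.2% of all windows. Each sequence below reads 5′ to 3′ on the gene's own strand and ends at the base before the start of the gene, except that Slc51b is cut where an exon of the GENCODE model begins. Capitals mark the motif match, which is the IR1 in Abcb11, the DR4 in Slc51b and the Nrf2 core in Abcc4. The last line is the whole stretch between the end of the Abcg5 model and the divergent RefSeq start of Abcg8, shown because the 2 genes share it.
Abcb11, minus strand, chr2:69342617-69342866: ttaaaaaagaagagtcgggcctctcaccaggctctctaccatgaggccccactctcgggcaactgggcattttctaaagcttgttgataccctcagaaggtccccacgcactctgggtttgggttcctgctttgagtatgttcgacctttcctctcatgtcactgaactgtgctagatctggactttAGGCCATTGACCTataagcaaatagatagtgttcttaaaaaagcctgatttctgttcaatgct
Slc51b, minus strand, chr9:65422956-65423023: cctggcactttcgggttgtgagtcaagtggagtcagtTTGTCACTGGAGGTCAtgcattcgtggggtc
Abcc4, minus strand, chr14:118706220-118706469: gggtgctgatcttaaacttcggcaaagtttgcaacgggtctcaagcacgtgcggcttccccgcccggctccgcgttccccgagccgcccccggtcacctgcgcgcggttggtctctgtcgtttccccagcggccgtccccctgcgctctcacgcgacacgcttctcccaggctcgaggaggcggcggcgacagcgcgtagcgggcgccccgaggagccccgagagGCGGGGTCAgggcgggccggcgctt
Abcg5 to Abcg8, plus strand, chr17:84683012-84683120: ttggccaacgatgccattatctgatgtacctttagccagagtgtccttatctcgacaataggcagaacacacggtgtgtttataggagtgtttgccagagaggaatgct
The IR1 of Abcb11 lay 63 to 51 bases before the start and reads AGGCCATTGACCT. In Abcc4 the Nrf2 core lay 25 to 17 bases before the start, on the opposite strand. Abcg5 and Abcg8 face away from each other across these 109 bases, and the longer Abcg8 model in the table (chromosome 17, 84676302 to 84700333) overlaps Abcg5 (84658234 to 84683011), so their counts cannot be fully told apart where the counting ignored strand, which is not given in the sources used here. A motif match describes letters and is not evidence of binding.

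Abcb11 (chromosome 2, 69238282 to 69342616, minus strand), the gene with the FXR site, was nearly flat over the study. Its CPM in female livers was 828, 896, 889 and 991 in WT on chow and 860, 916, 769 and 959 in KO on chow. On SC-435 it was 951, 872, 843 and 938 in female WT and 802, 731, 800 and 761 in female KO mice. In male livers on chow it was 549, 934, 872 and 687 in WT and 857, 755, 814 and 687 in KO. Male livers on SC-435 had 758, 792, 780 and 719 in WT and 816, 836, 795 and 808 in KO. Only the female KO mice on SC-435 sat wholly below the female WT mice of either diet, and the lowest value of all, 549, was in male WT chow replicate 1. The 8 group means spanned 0.27 on the scale of log2(CPM + 0.5), and no comparison passed for Abcb11. The change nearest to the threshold was a log2 difference of -0.22 ± 0.06 (SE) between female KO and WT mice on SC-435 (edgeR adjusted p = 0.0561), which passed with DESeq2 and with voom weights. In female KO against WT mice on chow it was -0.02 ± 0.11 (edgeR adjusted p = 0.929).

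Abcc4 (chromosome 14, 118482692 to 118706219, minus strand) had group means that spanned 2.45 on the scale of log2(CPM + 0.5), and it had its highest levels on SC-435. On that scale, which narrows the span of low genes, Slc51b spanned 2.08. Its CPM was 4.54, 6.26, 5.75 and 5.06 in female WT mice on chow and 8.02, 10.3, 9.29 and 9.58 in female KO mice on chow. On SC-435 it was 10.28, 14.7, 10.35 and 14.1 in female WT mice and 19.15, 22.4, 22.98 and 14.7 in female KO mice. Among females WT mice on chow lay below all others and KO mice on SC-435 lay above all mice on chow, while KO on chow and WT on SC-435 met at 10.3 and the 2 SC-435 groups met at 14.7. In males on chow the CPM was 2.88, 3.23, 3.03 and 3.58 in WT and 2.85, 3.68, 5.05 and 6.83 in KO. In males on SC-435 it was 12.5, 11.7, 12.8 and 5.22 in WT and 12.9, 13.4, 14.6 and 12.8 in KO. Male WT and KO mice on chow overlapped, and 7 of the 8 male mice on SC-435 were above every male mouse on chow, the exception being WT SC-435 replicate 4. Because these are bulk liver samples, fewer or more cells of a type and less or more RNA per cell cannot be told apart here.

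Abcc4 rose with SC-435 in KO livers of both sexes, by 1.07 ± 0.15 on the log2 scale in females (edgeR adjusted p = 0.00258) and by 1.502 ± 0.24 in males (edgeR adjusted p = 0.00588). It also rose with SC-435 in female WT livers, by 1.2 ± 0.16 (edgeR adjusted p = 0.00599). In male WT livers the difference was 1.71 ± 0.29 with an edgeR adjusted p of 0.124, which became 0.0262 without male WT chow replicate 1 and 0.0365 without male WT SC-435 replicate 4. Within a diet Abcc4 was higher in female KO than WT mice, by 0.80 ± 0.14 on chow (edgeR adjusted p = 0.00513) and by 0.68 ± 0.16 on SC-435 (edgeR adjusted p = 0.0257). The second of these was lost when any of 5 single libraries was left out, with adjusted p up to 0.0788. In males the KO difference was 0.58 ± 0.31 on chow (edgeR adjusted p = 0.408, or 0.296 without male WT chow replicate 1) and 0.34 ± 0.23 on SC-435 (edgeR adjusted p = 0.703). KO mice on SC-435 were furthest from WT mice on chow, at 1.88 ± 0.16 in females (edgeR adjusted p = 9.99e-05) and 2.06 ± 0.15 in males (edgeR adjusted p = 0.00193), and the male change was 2.02 without male WT chow replicate 1. The SC-435 effect did not differ detectably between KO and WT livers, with an interaction of -0.13 ± 0.22 in females (edgeR adjusted p = 0.793) and -0.22 ± 0.39 in males (edgeR adjusted p = 0.828).

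Slc51b (chromosome 9, 65412714 to 65422955, minus strand) was a low gene that moved the other way from Abcc4 under SC-435 in KO livers. Its counts were 15, 4, 18 and 28 in female WT mice on chow and 129, 202, 59 and 48 in female KO mice on chow, which is 0.40 ± 0.24 and 2.16 ± 1.29 CPM (SD, n = 4). On SC-435 the counts were 3, 5, 2 and 3 in female WT mice and 4, 13, 5 and 4 in female KO mice. In males on chow they were 4, 4, 3 and 6 in WT and 20, 20, 85 and 164 in KO. In males on SC-435 they were 2, 1, 0 and 10 in WT and 3, 8, 5 and 8 in KO. All 8 KO mice on chow were above every other mouse of their own sex. On SC-435 the KO mice were at 0.0909 to 0.300 CPM in females and 0.0738 to 0.2005 in males, beside 0.0945 to 0.668 and 0.0751 to 0.155 in WT mice on chow. In male KO mice on chow the counts split into 2 livers at 20 and 2 livers at 85 and 164.

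Slc51b rose in female KO against WT mice on chow, by 2.46 ± 0.54 on the log2 scale (edgeR adjusted p = 0.0153). SC-435 lowered it in KO livers of both sexes, with a log2 change of -3.81 ± 0.54 in females (edgeR adjusted p = 0.00287) and -3.21 ± 0.70 in males (edgeR adjusted p = 0.0183). The male change was lost without KO SC-435 replicate 1, 3 or 4, with adjusted p up to 0.0591. In male KO against WT mice on chow the difference was 3.53 ± 0.74 with an edgeR adjusted p of 0.0624, which became 0.0430 without male WT chow replicate 1. Slc51b passed the filter on low counts in these tests because of the KO chow group, so it had to differ there, and the size of its fitted folds depends on the prior count that edgeR adds to the few reads of the other group. Without that filter the log2 change in KO on chow was 2.46 (edgeR adjusted p = 0.00286) in females and 3.52 (edgeR adjusted p = 0.0371) in males. Under SC-435 in KO livers it was -3.81 (edgeR adjusted p = 9.77e-05) in females and -3.20 (edgeR adjusted p = 0.00860) in males. Female KO mice on SC-435 differed from WT mice on chow by -1.35 ± 0.58 (edgeR adjusted p = 0.138), and by -1.68 (edgeR adjusted p = 0.0475) without female WT chow replicate 2. That mouse had 4 counts, the lowest of its group, so leaving it out favours a difference and the call is no support for one. Summed counts were 26 against 65, so the filter on low counts was passed there largely through the WT mice. In the other comparisons of 2 groups without KO chow mice the counts were too few for the fit. An exact permutation test of CPM (two-sided, smallest possible p 0.0286) gave p = 0.0571 for female WT mice on SC-435 against chow, with summed counts of 13 against 65. Its adjusted p was 0.810 over the 17 such tests of Slc51a and Slc51b.

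Slc51a (chromosome 16, 32474504 to 32487879, minus strand), the partner that Slc51b needs, stayed near the detection limit everywhere, at 0 to 12 counts per liver. Its summed counts in female mice were 21 in WT on chow, 19 in KO on chow, 31 in WT on SC-435 and 21 in KO on SC-435. In male mice the sums were 17, 19, 17 and 20 in the same order. It was never tested by the model, and the exact permutation tests of its CPM gave p of 0.314 or more in all 11 comparisons, so the rise of Slc51b in KO livers had no detectable counterpart in Slc51a at this depth.

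**Figure D2:**
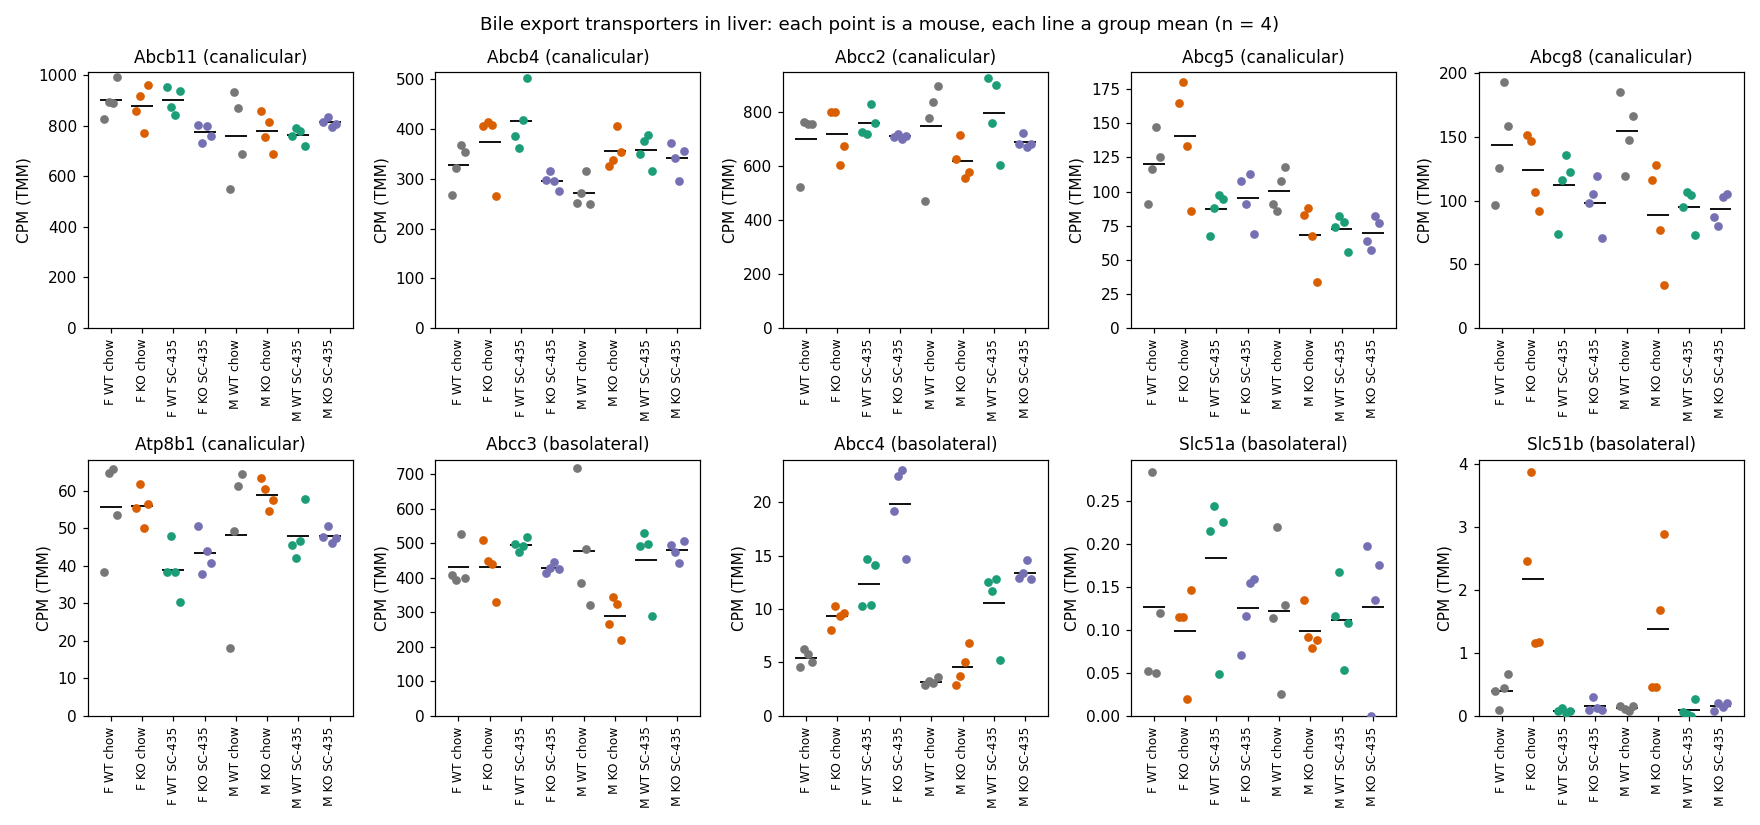
CPM (TMM-scaled) of the 10 transporter genes, 1 panel per gene, with 1 point per mouse and a line at each group mean (n = 4), grey for WT on chow, orange for KO on chow, green for WT on SC-435 and purple for KO on SC-435. Abcc4 stands highest in both SC-435 colours, Slc51b only in the orange KO chow groups, and Abcb11 changes little in any group.

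Abcc3 (chromosome 11, 94343295 to 94392997, minus strand), the abundant basolateral pump, changed in male KO livers. Its CPM was 265, 345, 324 and 219 in male KO mice on chow and 496, 476, 444 and 506 in male KO mice on SC-435, without overlap. The rise with SC-435 was 0.71 ± 0.14 on the log2 scale (edgeR adjusted p = 0.0125) and held without each single library in turn, while the adjusted p was 0.0933 when all 4 male groups shared a fit. Male WT mice had 718, 384, 484 and 322 on chow and 493, 531, 497 and 289 on SC-435, and the male KO against WT difference on chow was -0.68 ± 0.28 (edgeR adjusted p = 0.281). The value of 718 belonged to male WT chow replicate 1, without which that difference was -0.42 (edgeR adjusted p = 0.179). In females Abcc3 was at 331 to 528 CPM in the chow groups, and the SC-435 difference in KO mice was -0.03 ± 0.13 (edgeR adjusted p = 0.879). The difference between the sexes in this response was -0.76 ± 0.20, female minus male (edgeR adjusted p = 0.125), and -0.86 (edgeR adjusted p = 0.0272) without female KO chow replicate 4. On SC-435 female KO mice were below WT mice, at 413 to 445 against 474 to 519 CPM, a log2 change of -0.21 ± 0.06 (edgeR adjusted p = 0.0405) that passed in only 1 of the 8 fits without a single library and with 4 of 8 other settings.

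Abcb4 (chromosome 5, 8893717 to 8959231, plus strand), the phospholipid flippase, fell in 1 comparison. On SC-435 its CPM was 386, 362, 418 and 503 in female WT mice and 298, 315, 297 and 277 in female KO mice, without overlap, a log2 change of -0.49 ± 0.10 (edgeR adjusted p = 0.0126). It kept its call without each library in turn, and the adjusted p was 0.0650 when all 4 female groups shared a single fit. Female mice on chow had 267, 323, 368 and 354 in WT and 407, 414, 409 and 265 in KO. In female KO mice the SC-435 difference was -0.35 ± 0.14 (edgeR adjusted p = 0.111). It passed with voom weights and by library size only, and without female KO chow replicate 4, the mouse at 265, it was -0.48 (edgeR adjusted p = 0.00146). The interaction of genotype and diet in females was -0.71 ± 0.20 (edgeR adjusted p = 0.0720), and without the same mouse it was -0.85 (edgeR adjusted p = 0.00318). In males Abcb4 was at 250 to 315 CPM in WT on chow and at 295 to 406 in the other 3 groups, with a KO difference on chow of 0.44 ± 0.17 (edgeR adjusted p = 0.265), or 0.39 (edgeR adjusted p = 0.0867) without male WT chow replicate 1.

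Atp8b1 (chromosome 18, 64528979 to 64661000, minus strand), the aminophospholipid flippase, was the only canalicular gene that passed in both sexes. In KO mice of the female groups it was at 55.4, 61.7, 50 and 56.4 CPM on chow and 50.6, 37.8, 44.0 and 40.6 on SC-435, a log2 change of -0.39 ± 0.10 (edgeR adjusted p = 0.0246). In male KO mice it was at 63.2, 60.3, 54.6 and 57.4 on chow and 47.7, 50.6, 46.1 and 47.4 on SC-435, a log2 change of -0.33 ± 0.07 (edgeR adjusted p = 0.0163). The male groups did not overlap, and the female groups did, at 50 and 50.6. Both calls were lost when the 4 groups of a sex shared a fit. The female call was also lost without KO chow replicate 2 or KO SC-435 replicate 2, 3 or 4 (adjusted p up to 0.0795), and the male call without KO SC-435 replicate 1 or 4 (up to 0.0573). Atp8b1 stood at 38.2 to 65.8 CPM in female WT mice on chow and 30.3 to 47.9 in female WT mice on SC-435, a difference of -0.52 ± 0.18 (edgeR adjusted p = 0.156), or 0.0413 without female WT chow replicate 1.

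Abcc2 (chromosome 19, 43782192 to 43840740, plus strand), the conjugate pump, passed in no comparison. Its group means were 700 to 758 CPM in females and 620 to 798 in males, with a span of 0.35 on the scale of log2(CPM + 0.5) between male WT on SC-435 and male KO on chow, a pair that was not tested, and the 4 female KO mice on SC-435 were within 700 to 718. The largest difference among the comparisons tested within a sex was -0.23 ± 0.23 on the log2 scale, in male KO against WT mice on chow (edgeR adjusted p = 0.668), where it passed only with voom weights (adjusted p = 0.0464). Without male WT chow replicate 1 this difference was -0.40 (edgeR adjusted p = 0.0772).

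Abcg5 and Abcg8, the sterol pair, passed in no comparison either, although some of their differences passed under another setting or without a single library. Abcg5 was at 91.2, 116, 147 and 125 CPM in female WT mice on chow and 165, 180, 133 and 85.6 in KO on chow. On SC-435 it was at 67.8, 87.8, 97.7 and 94.6 in WT and 108, 90.7, 113 and 69.0 in KO females. The female KO mice on SC-435 differed from KO mice on chow by -0.59 ± 0.23 for Abcg5 (edgeR adjusted p = 0.0974), and by -0.36 ± 0.19 for Abcg8 (edgeR adjusted p = 0.226). Without female KO chow replicate 4 the Abcg5 change was -0.76 with an adjusted p of 0.00639. In males Abcg8 was at 119 to 185 CPM in WT on chow, 33.9 to 128 in KO on chow, 73.0 to 107 in WT on SC-435 and 79.9 to 105 in KO on SC-435. Male KO mice on SC-435 lay wholly below WT mice on chow for Abcg8, at -0.74 ± 0.18 (edgeR adjusted p = 0.199), and without male WT chow replicate 1 this was -0.63 with an adjusted p of 0.0141. The ratio of Abcg5 to Abcg8 per kilobase was 1.55 ± 0.20 (SD, n = 4) in female KO mice on chow and 1.18 ± 0.13 in female WT mice on chow. On SC-435 it was 1.34 ± 0.14 in female KO and 1.09 ± 0.12 in female WT mice, and it was 0.92 to 1.13 on average in the 4 male groups. Reads from the overlap of the 2 gene models may be mixed in this ratio.

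Read by side, few canalicular genes were called, and the basolateral genes did not move together. In female KO against WT mice on chow, 0 of 6 canalicular genes passed in edgeR, at an unadjusted p under 0.05, in DESeq2 or with voom weights, whereas 2 of the 4 basolateral genes, Abcc4 and Slc51b, were higher. In that comparison 9.83% of all genes tested were higher and 5.05% lower. The median log2 change of the 6 canalicular genes was 0.05, against -0.02 for all genes. Of the other basolateral genes, Abcc3 was at 0.03 ± 0.15 and Slc51a could not be fitted. In tests with KO chow mice Slc51b passed the filter on low counts because of that group. Its calls there are therefore no support for a difference between the sides. Under SC-435 in female KO mice, Abcc4 was higher and Atp8b1 and Slc51b were lower, where 8.56% of all genes were higher and 9.23% lower. The canalicular log2 changes there ran from -0.59 to -0.04. Their median was -0.36, against -0.02 for all genes and -0.03 for the 3 basolateral genes fitted. Under SC-435 in male KO mice, Abcc3 and Abcc4 were higher and Atp8b1 and Slc51b lower, with backgrounds of 8.8% and 8.36%. The canalicular median there was 0.02 and that of the 3 basolateral genes fitted 0.71, against -0.03 for all genes. These last 2 comparisons share their KO chow mice with the comparisons of KO and WT on chow, so the opposite signs for Slc51b rest in part on the same livers.

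With SC-435 in WT mice, Abcc4 alone among the 10 was higher in females, where 2.4% of all genes were higher and 1.88% lower. In males 0 members passed in edgeR, with 4 at an unadjusted p under 0.05, 1 in DESeq2 and 4 with voom weights, where 0.0131% of all genes were higher and 0.0263% lower. That background depended on the fit, since 2 genes were higher and 4 lower over the whole table but 220 and 174 without male WT chow replicate 1, and 792 and 801 with voom weights. In male KO against WT mice on chow 0 members passed, with 3 at an unadjusted p under 0.05, 1 in DESeq2 and 2 with voom weights, and the backgrounds were 0.933% higher and 0.151% lower, or 718 and 478 of 16390 genes without male WT chow replicate 1. For KO mice on SC-435 against WT mice on chow, Abcc4 was the only member called, in females (backgrounds 8.73% higher and 7.3% lower) and in males (0.169% and 0.039%). Without female WT chow replicate 1 this comparison also called Abcb11, Abcg8 and Atp8b1 lower in females, and without male WT chow replicate 1 it also called Abcc2, Abcg5 and Abcg8 lower in males. Over the whole table the male comparison then called 1022 of 15797 genes higher and 901 lower, against 26 and 6 of 15395 with that library, and the female one without female WT chow replicate 1 called 1685 of 16137 higher and 1489 lower. Between KO and WT mice on SC-435, females had Abcc4 higher and Abcb4 and Abcc3 lower (6.23% and 4.69%). There males had 0 members called, with 0 at an unadjusted p under 0.05 and 0 in DESeq2 or with voom weights (0.013% and 0.0194%). The 5 tests of differences between effects or sexes called 0 members in edgeR. These were the interaction of genotype and diet in females (2.64% of all genes called in either direction) and in males (0.0906%), female against male WT mice on chow (1.49%), the interaction of sex and genotype on chow (0.0235%) and that of sex and SC-435 in KO mice (0.211%). Members at an unadjusted p under 0.05 numbered 1, 3, 1, 2 and 1 in that order, those called by DESeq2 1, 0, 1, 0 and 1, and those called with voom weights also 1, 0, 1, 0 and 1. The WT sex difference called by both was Abcc4, higher in females by 0.74 ± 0.19 (edgeR adjusted p = 0.146, and 0.0263 without male WT chow replicate 1).

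**Figure D3:**
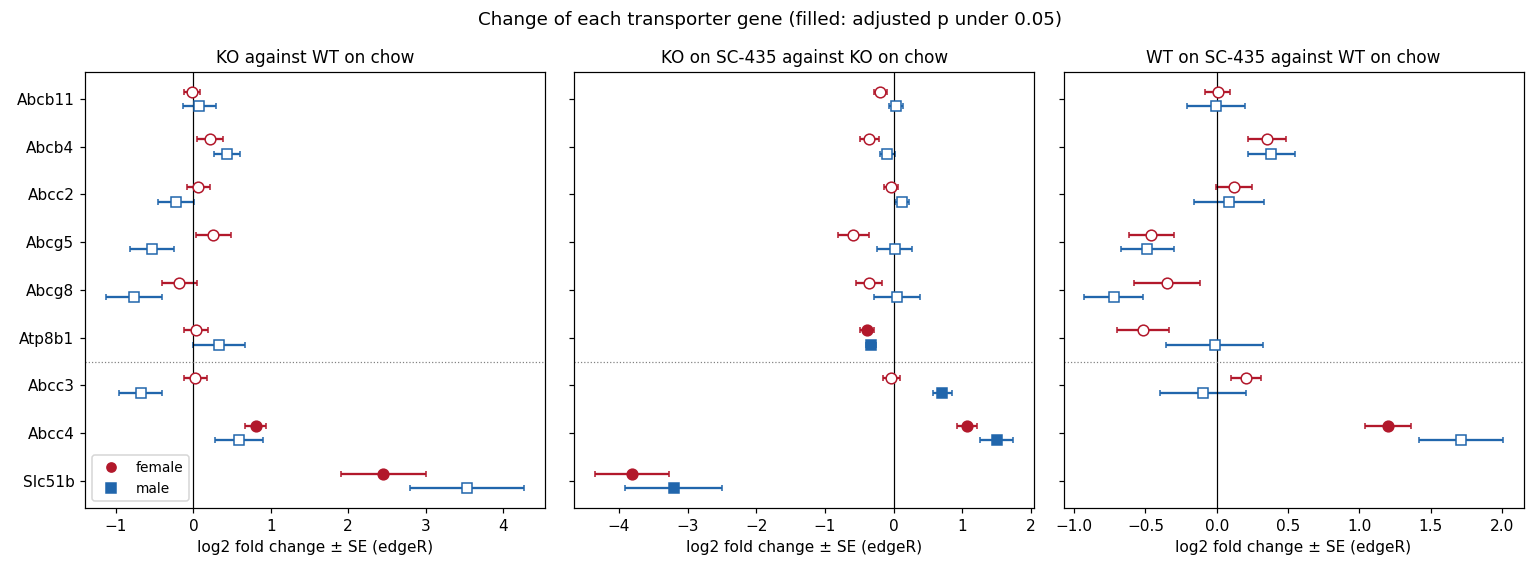
Log2 fold change with its SE (edgeR) for the 9 genes that could be fitted, canalicular above the dotted line and basolateral below, red circles for females and blue squares for males, filled where the adjusted p was under 0.05 (n = 4 mice per group, each panel with its own scale). Slc51b lies far to the right for KO against WT and far to the left for SC-435 in KO, while Abcc4 lies to the right in all 3 panels.

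A per-mouse score is given as a description of the sides. This score is the mean log2 level per kilobase of the 4 basolateral genes minus that of the 6 canalicular genes, with 0.1 added to each level. It was -4.82 ± 0.22 (SD, n = 4) in female WT mice on chow, -4.13 ± 0.10 in KO on chow, -4.69 ± 0.23 in WT on SC-435 and -4.37 ± 0.20 in KO on SC-435. In males it was -5.09 ± 0.41, -4.39 ± 0.65, -4.80 ± 0.17 and -4.44 ± 0.06 in the same order, and male WT chow replicate 1 was at -4.53 while the other 3 of its group were at -5.47 to -5.10. With Slc51a and Slc51b left out, the score in females was -2.37 ± 0.17, -2.05 ± 0.12, -1.58 ± 0.14 and -1.25 ± 0.10, and the order of the groups changed, with both SC-435 groups now above KO on chow. The summed level per kilobase follows Abcc3 instead. Its basolateral share was 16.8% ± 2.0 in female WT mice on chow, 17.1% ± 1.9 in KO on chow, 19.15% ± 0.47 in WT on SC-435 and 19.1% ± 0.79 in KO on SC-435. The share in male WT mice was 31.6%, 15.4%, 18.0% and 13.6% on chow, the first in replicate 1, and 19.1% ± 2.8 on SC-435. In male KO mice it was 14.3% ± 1.6 on chow and 20.6% ± 0.73 on SC-435.

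The summed markers of bile duct cells, like Slc51b, stood higher in KO than in WT mice on chow. Bile duct cells and hepatocytes are both known to be able to express Slc51a and Slc51b. The summed CPM of 12 cholangiocyte markers was 98.7 to 135 in female WT mice on chow and 197 to 355 in female KO mice on chow, and 85.3 to 122.5 against 205 to 1223 in males, with 10 of the 12 markers above a mean of 1 CPM in KO mice on chow in each sex. Of the 11 that could be fitted, 8 were higher in female KO on chow (9.83% of all genes) and 4 in male KO on chow (0.933%), among them Spp1, a secreted matrix protein of the biliary epithelium, at 2.40 ± 0.31 (edgeR adjusted p = 0.00198) and 4.48 ± 0.77 (edgeR adjusted p = 0.0376). The 2 male KO livers with 85 and 164 counts of Slc51b had marker sums of 543.5 and 1223, and the 2 livers with 20 counts had 205 and 242. The female KO livers on chow were not ordered alike. Their marker sums were 252.3, 355.4, 354.8 and 197.1, and their Slc51b was at 2.46, 3.87, 1.16 and 1.17 CPM in the same order. On SC-435 the marker sum was 165.5 to 211 in female KO mice, still above all 4 WT mice on chow, while their Slc51b was at 0.0909 to 0.300 CPM, against 0.0945 to 0.668 in those WT mice. In male KO mice on SC-435 the sum was 108 to 120. For Abcc4, the male KO mice on chow with the 2 highest marker sums also had its 2 highest levels of that group, 5.05 and 6.83 CPM, but female WT mice on SC-435 had marker sums of 91.3 to 103 and Abcc4 of 10.28 to 14.7 CPM. The part of bile duct cells in the Slc51b values and in the Abcc4 values of KO mice on chow was not tested. Stellate and macrophage marker sums were also higher in KO mice on chow, with medians of 740 and 989 CPM in females against 361 and 544 in WT. The hepatocyte marker sum was lower, with a median of 69690 CPM in female KO mice on chow against 114700 in WT.

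**Figure D4:**
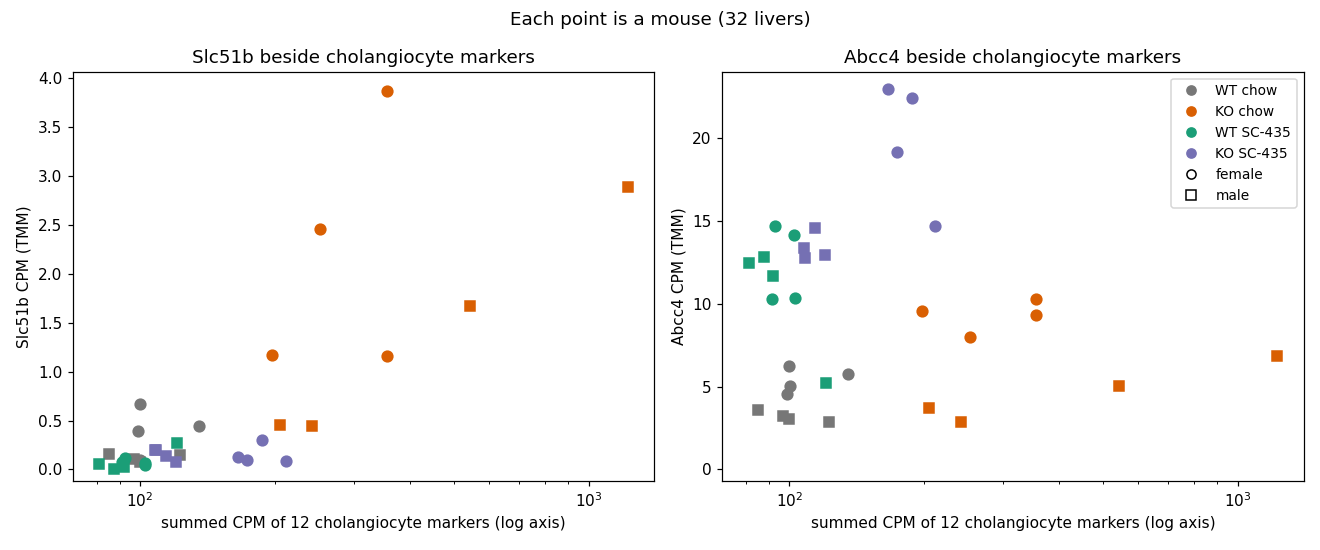
Slc51b (left) and Abcc4 (right) in CPM against the summed CPM of 12 cholangiocyte markers (log axis), with 1 point per mouse, circles for females, squares for males and colours for genotype and diet. Slc51b is high only in KO mice on chow, whose marker sums reach 1223, while Abcc4 is highest in female KO mice on SC-435, with marker sums of 165.5 to 211.

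Of 19 other hepatobiliary transporters, the carriers that sit beside these 10, 4 were higher and 3 lower in female KO against WT mice on chow, beside 9.83% and 5.05% of all genes. They were led by Abcg1, a cholesterol exporter (1.19 ± 0.17, edgeR adjusted p = 0.00251), and Abcc5, an organic anion pump (0.80 ± 0.14, edgeR adjusted p = 0.00530). Next named was Abcc1, another organic anion pump (0.87 ± 0.17, edgeR adjusted p = 0.00932). In female KO mice SC-435 lowered Abcg1 (-1.04 ± 0.17), Abcc5 (-0.79 ± 0.14) and the multidrug pumps Abcb1a (-1.36 ± 0.24) and Abcb1b (-1.46 ± 0.28). Their edgeR adjusted p were 0.005025, 0.006265, 0.00645 and 0.00838. Abcc1 was lower too (-0.70 ± 0.17, edgeR adjusted p = 0.0223). In all 5 were higher and 6 lower, beside 8.56% and 9.23% of all genes. Abcb1a had been higher in female KO against WT mice on chow (1.67 ± 0.33, edgeR adjusted p = 0.0097). These 2 comparisons share the KO chow mice, so the opposite signs rest in part on the same livers. Among male KO mice SC-435 raised 5 and lowered 2, beside 8.8% and 8.36% of all genes, led by Slc47a1, a cation exporter of the canaliculus (0.97 ± 0.16, edgeR adjusted p = 0.00596), and Aqp8, a canalicular water channel (1.15 ± 0.19, edgeR adjusted p = 0.00620). In female WT mice Slc47a1 alone was higher on SC-435 (0.41 ± 0.09, edgeR adjusted p = 0.0384), beside 2.4% of all genes. Male KO against WT mice on chow had 0 of 19 in edgeR, beside 0.933% of all genes higher and 0.151% lower. Of the 19 genes 10 were at an unadjusted p under 0.05, 4 passed in DESeq2 and 8 with voom weights.

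Among 15 partner, scaffold and trafficking proteins of the canalicular membrane, 2 were higher and 2 lower in female KO against WT mice on chow, beside 9.83% and 5.05% of all genes. Ezr (ezrin), a linker of membrane and actin that is known from bile duct cells, was higher by 0.95 ± 0.17 (edgeR adjusted p = 0.00619) and Msn (moesin) by 0.53 ± 0.11 (edgeR adjusted p = 0.0103). Pdzk1, a scaffold that binds the tails of transporters, was lower, with a log2 change of -0.77 ± 0.155 (edgeR adjusted p = 0.0103), and so was Tmem30a, the subunit that P4 flippases such as Atp8b1 need, at -0.50 ± 0.12 (edgeR adjusted p = 0.0216). SC-435 in female KO mice turned all 4 of these the other way, Ezr at -0.68 ± 0.11, Msn at -0.45 ± 0.10, Pdzk1 at 0.64 ± 0.15 and Tmem30a at 0.38 ± 0.09, with edgeR adjusted p of 0.00546, 0.0137, 0.0164 and 0.0229, and 3 were higher and 3 lower in all, beside 8.56% and 9.23% of all genes. These 2 comparisons share the KO chow mice. In male KO mice SC-435 raised Rdx (radixin), the linker of the hepatocyte canaliculus, by 0.44 ± 0.09 (edgeR adjusted p = 0.0145) and lowered Ezr, at -1.37 ± 0.32 (edgeR adjusted p = 0.0212). There 8.8% of all genes were higher and 8.36% lower. Of the 15 genes, 0 passed in edgeR in male KO against WT mice on chow, beside 0.933% of all genes higher and 0.151% lower. In that comparison 4 were at an unadjusted p under 0.05, 0 passed in DESeq2 and 2 with voom weights.

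Of 16 receptors and factors known to regulate the 10 genes, 4 were lower and 0 higher in female KO against WT mice on chow (edgeR), beside 5.05% and 9.83% of all genes. CAR (Nr1i3) changed by -1.24 ± 0.21 (edgeR adjusted p = 0.00509), FXR (Nr1h4) by -0.48 ± 0.12 (edgeR adjusted p = 0.0243). Hnf4a, a master factor of the hepatocyte, changed by -0.42 ± 0.11 (edgeR adjusted p = 0.0295), and Nr0b2 (SHP), itself a textbook FXR target, by -0.82 ± 0.24 (edgeR adjusted p = 0.0448). Of the known FXR targets in female KO livers on chow, Nr0b2 was lower, Slc51b was higher and Abcb11 had no call. The part of FXR in these values was not tested. In KO mice SC-435 raised Nr1h4 in both sexes, by 0.76 ± 0.11 in females (edgeR adjusted p = 0.00319) and 0.45 ± 0.09 in males (edgeR adjusted p = 0.0127), and Klb, the co-receptor for intestinal FGF15, by 0.59 ± 0.17 (edgeR adjusted p = 0.0398) and 0.78 ± 0.18 (edgeR adjusted p = 0.0198). The female Nr1h4 changes with genotype and with SC-435 share the KO chow mice. Nr0b2 was lower on SC-435 in female WT mice, at 25.4 ± 10.7 against 65.5 ± 12.9 CPM (SD, n = 4), a log2 change of -1.36 ± 0.30 (edgeR adjusted p = 0.0346), and in male KO mice the change was -1.95 ± 0.48 (edgeR adjusted p = 0.0258). Nrf2 (Nfe2l2), the factor whose core motif lies at the Abcc4 start, was at 62.5 ± 8.6 CPM in female WT mice on chow. It was at 79.3 ± 11.7 CPM in female KO mice on chow and 68.75 ± 4.8 in female KO mice on SC-435. In males on chow it was at 51.8 ± 11.2 CPM in WT and 75.4 ± 12.7 in KO mice. Neither KO difference on chow was called. In male KO mice its change on SC-435 was -0.46 ± 0.13 (edgeR adjusted p = 0.0407). The part of Nrf2 in the Abcc4 values was not tested. Male KO against WT mice on chow had 0 of the 16 called in edgeR, beside 0.933% of all genes higher and 0.151% lower. Of the 16 genes 6 were at an unadjusted p under 0.05, 3 passed in DESeq2 and 7 with voom weights.

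The genes whose 8 group means followed those of a member most closely were looked for where the member's group means of log2(CPM + 0.5) spanned at least 1. The candidates were 11727 other genes that code for protein and averaged 50 counts or more per library. For Abcc4 these were Robo1, Fam126a and H2-Q1, with a root mean square difference from its centred group means of 0.25, 0.29 and 0.30 on the log2 scale. For Slc51b they were Myo1f (0.19), Elf3 (0.22) and Wfdc2 (0.23). Outside KO mice on chow the group means of Slc51b were 0.0773 to 0.400 CPM, below the 0.5 added, which flattens its pattern. For Abcg5 they were Lipc (0.14), the hepatic lipase, Agxt (0.14) and Atp2a3 (0.16). The likeness was taken over 8 group means and describes these groups only.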

How the data were processed

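Liver poly-A RNA of 32 mice was sequenced, and the authors deposited raw read counts per gene; per the labels HISAT2 2.0.5, featureCounts 1.5.0-p3 and mm10 were among the tools and builds of the submitters' processing, whereas the strand setting of the counting is not given in the sources used here. Gene lengths in bases, a value of another kind, came from the deposited table. The deposited table also holds the authors' FPKM values and their group means, fold changes and p-values for pairs of groups, which were not used. Each comparison was fitted with edgeR 4.0.16 (R 4.3.3) on the libraries concerned, with filterByExpr, TMM and the quasi-likelihood test, and Benjamini-Hochberg adjustment over all genes tested. Alternatives were DESeq2 1.42.0, limma 3.58.1 (voom with quality weights), other scalings, filters, a replicate block, shared fits and leaving out each library. The scripts were tested on simulated counts, where DESeq2 made a larger share of false calls than edgeR or voom. The members and lists were chosen with earlier results of these data known. All 10 members are named. Abcc1 and Abcb1a are also given in a second comparison. Of each further list up to 4 genes with the smallest adjusted p are named, and for likeness the 3 closest genes. A gene that this rule would name is not reported here. Promoter windows came from RefSeq (GRCm38.p6).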

Additional observations from a re-analysis of the deposited data

Results flagged for a closer look

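In 6 of 80 sets of 4 values, each set being 1 gene in 1 group, 1 liver lay far from the other 3 by Dixon's test. Chance alone gives this in about 1 of 20 independent sets. These sets were not independent, since the 10 genes share the same livers. Abcb4 was at 265.2 CPM in female KO chow replicate 4, and the next mouse was at 407. Abcc2 was at 521.9 CPM in female WT chow replicate 1, with the next at 756. Abcc3 was at 528.2 CPM in female WT chow replicate 3, where the next was at 407. In male WT SC-435 replicate 4, Abcc3 was at 289.1 CPM (next 493) and Abcc4 at 5.218 CPM (next 11.7), and the same liver had the highest Slc51b of its group, at 0.269 CPM from 10 counts. Slc51a was at 0.04825 CPM in female WT SC-435 replicate 3, from 2 counts, with the next at 0.215.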

How the results depend on the processing

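Of 30 counts of members called higher or lower, 17 moved by over 1.5 times under some alternative. Of 2346 alternatives for single members, 2128 kept their direction and side of the threshold, 34 lost and 55 gained a call, and no called value changed sign. In female KO against WT on chow the 2 higher became 1 with the replicate block and 1 beyond a log2 fold change of 1. In female KO on SC-435 against KO on chow the 2 lower became 5 by library size only, 4 with voom, 1 in a single fit of 4 groups and 1 beyond a log2 fold change of 1. In female WT on SC-435 the 0 lower became 1 with voom and 1 with the replicate block. In female KO on SC-435 against WT on chow the 0 lower became 1 with DESeq2 and 3 with voom. In female KO against WT on SC-435 the 2 lower became 1 by library size only, without a filter or with the replicate block, and 0 in a single fit or beyond a log2 fold change of 1, while the 1 higher became 0 with the block and by that fold. In the female genotype by diet interaction the 0 lower became 1 by library size only, with DESeq2 and with voom. In male KO against WT on chow the 0 higher became 1 with DESeq2, voom, no filter and a single fit, and the 0 lower became 1 with voom. In male KO on SC-435 against KO on chow the 2 lower became 1 with a mean of at least 50 counts, the block, a single fit and the fold rule, and the 2 higher became 1 in a single fit and by the fold rule. In male WT on SC-435 the 0 higher became 1 with DESeq2 and a single fit and 2 with voom, and the 0 lower became 2 with voom. In male KO on SC-435 against WT on chow the 0 lower became 1 with DESeq2 and 3 with voom, and the 1 higher became 2 with voom and 0 with the block. In female against male WT mice the 0 higher became 1 with DESeq2, voom and a fit of all 32 libraries, and in the sex by SC-435 interaction the 0 lower became 1 with DESeq2 and voom. Except where the alternative itself uses fewer genes or a stricter rule, the cause was not tested.

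Leaving out 1 library at a time gave 1 to 4 lower in female KO on SC-435 against KO on chow, 0 to 1 lower in female WT on SC-435, 0 to 3 lower in female KO on SC-435 against WT on chow, and 0 to 1 higher and 1 to 2 lower in female KO against WT on SC-435. It gave 0 to 1 lower in the female genotype by diet interaction, 0 to 1 higher in male KO against WT on chow, 0 to 2 lower in male KO on SC-435 against KO on chow, 0 to 1 higher in male WT on SC-435 and 0 to 3 lower in male KO on SC-435 against WT on chow. It gave 0 to 1 higher in female against male WT mice and 0 to 1 lower in the sex by SC-435 interaction.

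Without Slc51a and Slc51b the basolateral minus canalicular score relative to WT on chow went from 0.69 to 0.32 in female KO on chow, 0.13 to 0.79 in female WT on SC-435, 0.45 to 1.12 in female KO on SC-435, 0.70 to 0.016 in male KO on chow, 0.30 to 0.80 in male WT on SC-435 and 0.65 to 1.10 in male KO on SC-435.

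The correlation of deviations between livers with the same replicate number ran from -0.19 to 0.43. In male KO against WT on chow (0.081 to 0.17) and in female against male WT on chow (0.060 to 0.43) all 4 pairs were positive, but 1 pair in each was not above 0.1, the limit used here for taking the numbers as pairs in the fit, and the labels tie them to no litter, batch or day. With the replicate block the calls of Slc51b in female KO against WT on chow (adjusted p = 0.0711), Abcc4 in female KO against WT on SC-435 (0.0531), Abcc4 in male KO on SC-435 against WT on chow (0.104), Abcc3 in female KO against WT on SC-435 (0.0746) and Atp8b1 with SC-435 in female (0.0574) and male (0.0538) KO mice were lost. Scaling by library size only moved the median log2 change of all genes by 0.19 in female and 0.25 in male KO against WT on chow and by -0.16 and -0.20 with SC-435 in KO mice, and the share of calls that were higher went from 66.1% to 90.8%, 86.05% to 95.9%, 48.1% to 20.5% and 51.3% to 24.55%. Whole-table calls in male KO against WT on chow were 148 higher and 24 lower, and 718 and 478 without male WT chow replicate 1. Depth limits Slc51a and Slc51b, at 0 to 12 and 0 to 202 counts per liver.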
